A study of Homo sapiens with 17 samples.

Results

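Cyclin-dependent kinase inhibitors (CKIs) are small proteins that bind cyclin-dependent kinases (CDKs) or their cyclin complexes and hold them inactive. The set described here holds the 7 genes of the CIP/KIP family (CDKN1A, CDKN1B and CDKN1C) and the INK4 family (CDKN2A, CDKN2B, CDKN2C and CDKN2D), out of 60664 genes in the RNA-Seq table. All were found by Ensembl identifier, and 6 of the 7 reached the mean normalized count of 10 that a gene needed to be tested, as did 15599 genes in all. CDKN1C did not.

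CIP/KIP proteins (p21, p27 and p57) bind cyclin and CDK together and act on CDK2 complexes above all. INK4 proteins (p16, p15, p18 and p19) bind CDK4 and CDK6 alone and keep D-type cyclins from them. Both families thereby keep the retinoblastoma protein bound to E2F factors and hold cells in G1. p21 is set largely by transcription, p27 largely by degradation through the SKP2 ubiquitin ligase, and the locus that encodes p16, ARF and p15 is silenced by Polycomb complexes in many dividing cells and deleted in many gliomas.

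The cells were SF8628, a human diffuse midline glioma line that carries the histone H3.3 K27M change and was grown as a monolayer. They received AZD5153, which blocks the bromodomains of BET proteins, or the solvent DMSO. There were 4 groups of 3 libraries each, namely DMSO for 24 hours, AZD5153 at 1 μM for 24 hours, DMSO for 48 hours and AZD5153 at 1 μM for 48 hours. SF8628 is a single line from a single tumor, no irradiated library is among these groups, and the labels do not say whether the replicates were separate cultures, so that p-values measure the spread between these libraries, which may be technical. H3K27ac and IgG CUT&RUN libraries of the series, and cells treated with another BET inhibitor, were not analysed here.

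Each library held between 15759148 and 27335220 reads on genes (median 20737337). The DMSO 24-hour replicate 1 stood apart: its counts differed from those of the other 2 libraries of its group by a chi-square, divided by its degrees of freedom, of 16.8 and 25.6, against 2.12 to 5.21 for every other pair within a group. Calls that turned on it are given with and without it. Of the markers of the glioma line, VIM, NES, SOX2 and GFAP were detected, OLIG2 was at 0 in all 12 libraries, and SOX10 and PDGFRA stayed below a normalized count of 10. These 7 markers, mostly through VIM, summed to 21821 to 30551 in DMSO and 18835 to 20639 in AZD5153 libraries of 24 hours, and to 17448 to 17848 and 15224 to 16783 in those of 48 hours. Of the 4 tested, 3 were called lower at 24 hours (34.6% of all tested genes) and 2 at 48 hours (33.9% of all tested genes). NES averaged 2050.2 (24 hours) and 1993 (48 hours) normalized counts in DMSO libraries but 758 and 544 in treated ones. VIM averaged 22869 ± 4811 (SD) in DMSO and 18551 with AZD5153 at 24 hours. At 48 hours its means were 15327 and 15450, so the lower sum at that time was not through VIM. The 5 fibroblast markers summed to 60568 to 86737 normalized counts in the DMSO libraries, nearly all from the collagen genes COL1A1 and COL1A2. In the AZD5153 libraries they summed to 20432 to 27404. All 5 were called lower at 24 hours (34.6% of all tested genes) and 4 at 48 hours (33.9% of all tested genes). Of 7 myeloid markers, AIF1 was at 0 in every library and PTPRC stayed below 10. Of the 3 tested, 1 was called higher and 1 lower at each time. Over all tested genes these shares were 33.9% and 34.6% at 24 hours and 33.1% and 33.9% at 48 hours. FCGR1A had a mean of 1.82 with DMSO and 299 with AZD5153 at 24 hours, while CSF1R had 189 and 27.9 (197 and 34.9 at 48 hours). The myeloid sum was 185 to 235 in DMSO libraries and 327 to 530.2 in AZD5153 libraries. CDH5 was at 0 in every library and the 4 endothelial markers summed to 331 to 643 in DMSO and 59.0 to 92.5 in AZD5153 libraries. Of the 3 tested, PECAM1 and VWF were called lower at both times. KDR went the other way at 24 hours, where it was called higher (mean 7.48 with DMSO and 17.8 with AZD5153), and was not called at 48 hours. The 4 epithelial markers summed to 880.3 to 1020.4 in DMSO and to 1034 to 1520.0 in AZD5153 libraries, mostly through KRT18. Its means were 871 and 1086 (DMSO and AZD5153) at 24 hours and 947 and 1409 at 48 hours. KRT19 was called lower at 24 hours (39.5 and 17.0) and not called at 48 hours. EPCAM means were 13.3 and 3.89, then 15.6 and 2.70. CDH1 was at 0 in every library outside the AZD5153 48-hour group (mean 14.8, highest library 44.5). With AZD5153 the glioma-line, fibroblast and endothelial sums were thus lower at both times, and the myeloid and epithelial sums were higher. The part of these shifts in the CKI results was not tested. In a bulk library, fewer cells of a type and less RNA per cell cannot be told apart.

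Sequences upstream of transcription start sites are shown for CDKN1A, CDKN2D and CDKN2A, and they come from RefSeq on GRCh38.p14. CDKN1A was called higher at both times under every alternative setting. CDKN2D was called higher at 48 hours under every setting but at 24 hours in only 8 of 24 (0.19, not called, without DMSO 24-hour replicate 1). CDKN2A was the member that fell most at 48 hours. RefSeq entries matched 6 of the 7 genes, with 9 start sites. Each line gives the 250 bases that end just before a start site, 5′ to 3′ on the strand of the gene, with capitals marking GC boxes (GGGCGG) and CCAAT boxes (CCAAT) on either strand. TATA boxes (TATAAA) and E-boxes (CACGTG) were also searched on both strands and are in none of these 4 windows. CDKN1A lies at chr6:36678464-36678713 on the plus strand and CDKN2D at chr19:10568980-10569229 on the minus strand. CDKN2A has 2 start sites on the minus strand, with windows at chr9:21974858-21975107 (the start of the p16 transcript) and chr9:21995325-21995574 (the start of the ARF transcript).
CDKN1A: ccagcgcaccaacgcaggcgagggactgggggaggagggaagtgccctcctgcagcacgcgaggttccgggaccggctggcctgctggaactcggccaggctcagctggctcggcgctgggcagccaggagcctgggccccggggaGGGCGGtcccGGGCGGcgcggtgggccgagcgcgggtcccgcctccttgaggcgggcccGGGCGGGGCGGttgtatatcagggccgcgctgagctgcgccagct
CDKN2D: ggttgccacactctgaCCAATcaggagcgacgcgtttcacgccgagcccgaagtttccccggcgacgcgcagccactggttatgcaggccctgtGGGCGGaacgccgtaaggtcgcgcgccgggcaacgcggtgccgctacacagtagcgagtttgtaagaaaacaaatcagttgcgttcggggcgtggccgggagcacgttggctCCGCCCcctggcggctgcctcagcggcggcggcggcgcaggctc
CDKN2A p16 start: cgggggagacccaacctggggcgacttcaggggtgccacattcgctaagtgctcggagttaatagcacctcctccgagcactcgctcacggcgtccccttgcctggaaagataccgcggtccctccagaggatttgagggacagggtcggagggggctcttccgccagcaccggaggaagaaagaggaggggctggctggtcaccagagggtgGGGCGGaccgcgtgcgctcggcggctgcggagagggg
CDKN2A ARF start: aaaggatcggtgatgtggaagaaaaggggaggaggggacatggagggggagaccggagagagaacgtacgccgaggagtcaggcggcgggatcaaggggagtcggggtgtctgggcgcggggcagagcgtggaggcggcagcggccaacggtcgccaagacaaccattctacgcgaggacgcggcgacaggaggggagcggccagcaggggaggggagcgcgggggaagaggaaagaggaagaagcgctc

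The CDKN1A window held 4 GC boxes, of which the last 2 share bases, the CDKN2D window held 2 and a CCAAT box, the p16 start held 1, and the ARF start held none of the 4 motifs. Over 34788 windows of the same length, 42.6% held a GC box, 32.0% a CCAAT box, 10.8% a TATA box and 6.31% an E-box. All 4 windows were above the median of 11 CG dinucleotides over all windows, with 27 in CDKN1A, 33 in CDKN2D, 20 at the p16 start and 24 at the ARF start. Fewer were held by 82.3%, 91.8%, 67.5% and 76.3% of all windows, in that order. CG dinucleotides numbered 27 in CDKN1B, 18 in CDKN2B and 7, 35 and 10 at the start sites of CDKN2C. Of the windows not printed, CDKN1B held 1 GC box and 2 CCAAT boxes, CDKN2B held 2 GC boxes, and the 3 start sites of CDKN2C held 0, 5 and 1 GC boxes, 1, 0 and 1 E-boxes and 0, 0 and 1 CCAAT boxes.

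After 24 hours of AZD5153, CDKN1A, CDKN2B and CDKN2D were higher than in DMSO and CDKN1B, CDKN2A and CDKN2C were lower. Of the 6 tested members 3 were called higher, against 33.9% of all tested genes, and 3 lower, against 34.6% of all tested genes (limma on log2(normalized count + 1), Benjamini-Hochberg adjustment over all genes tested, adjusted p below 0.05). The 3 higher calls differed in firmness: CDKN1A held under all 24 alternative settings, CDKN2B lost its call without AZD5153 24-hour replicate 2 (adjusted p = 0.0575, limma) and CDKN2D lost it in 16 of 24, so that without that library CDKN1A was the 1 member called higher. After 48 hours 2 were higher (33.1% of all genes), 3 were lower (33.9%) and CDKN2B was not called. A call in either direction was therefore common in these data, and the size of the CDKN1A change was what set it apart from the other members. Fold changes are on the log2(value + 1) scale, which understates the change of low genes. The normalized counts of all 7 genes are plotted by library.

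**Figure D1:**
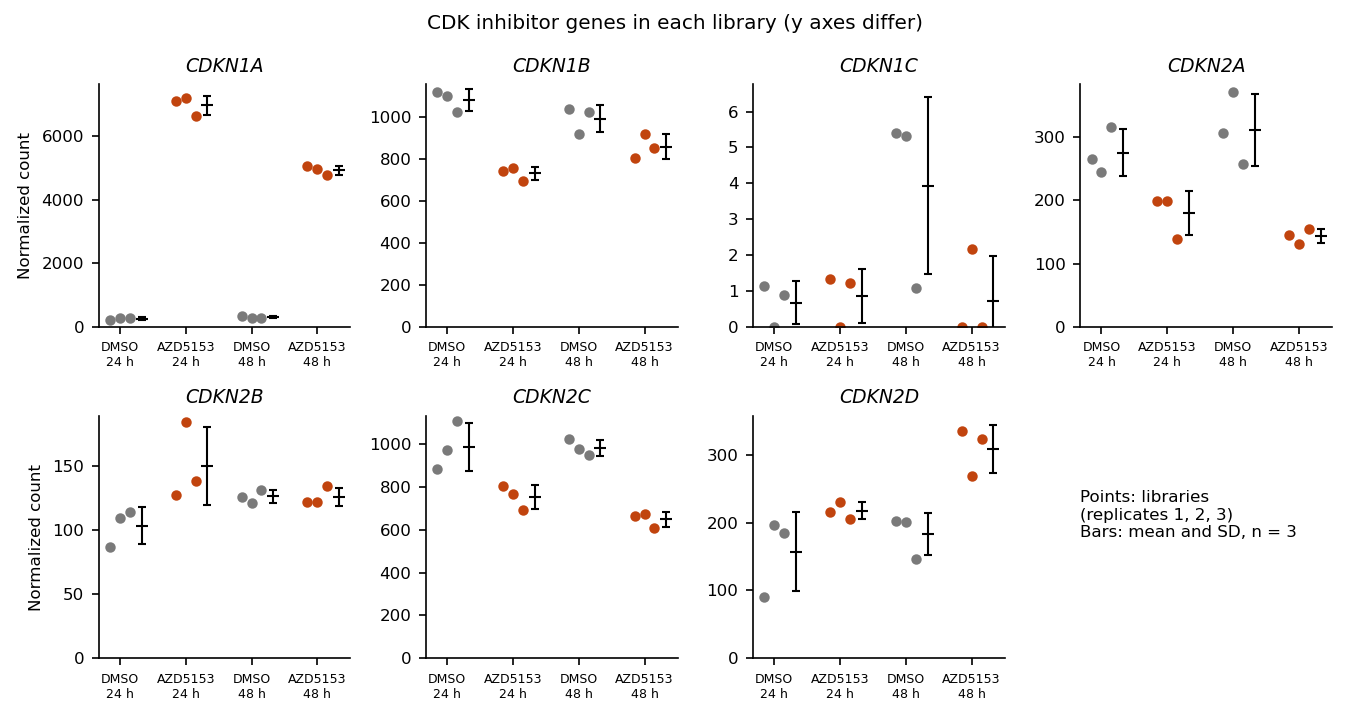
Normalized count (y axis, linear from 0, a different range in each panel) of the 7 CKI genes in the 4 groups (x axis). Points are libraries in the order of replicates 1 to 3, and black bars give the mean and SD of 3 libraries. CDKN1A goes from 255 ± 41.1 to 6975 ± 296 at 24 hours, and CDKN1C stays within 6 reads in every library.

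Gene positions below are GENCODE 44 coordinates on GRCh38. CDKN1A (ENSG00000124762, chr6:36676460-36687337, plus strand) encodes p21, which inhibits CDK2 complexes and binds PCNA at replication forks. Its normalized counts in DMSO replicates 1, 2 and 3 were 209.6, 289.7 and 266 at 24 hours. With AZD5153 they were 7095, 7193 and 6638 at that time. Every treated library was far above every control. This was a 27.5-fold increase (log2 fold change 4.78, SE 0.104, adjusted p = 5.6e-15, limma, n = 3 against 3), and the fold change without DMSO replicate 1 was 4.65 on the log2 scale. At 48 hours DMSO libraries had 344, 289.9 and 271 and AZD5153 libraries 5059, 4962 and 4780.4, a 16.4-fold increase (log2 fold change 4.03, SE 0.104, adjusted p = 4.4e-14, limma). The treated values at 48 hours all lay below those at 24 hours, by 1.41-fold (log2 fold change -0.50, SE 0.104, adjusted p = 0.00183, limma), while the DMSO values overlapped between the times (log2 fold change 0.25, SE 0.104, adjusted p = 0.0750, limma). The treatment effect at 48 hours was smaller than at 24 hours by 0.75 on the log2 scale (interaction log2 fold change -0.75, SE 0.146, adjusted p = 0.00172, 95% interval -1.06 to -0.43, limma).

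CDKN1B (ENSG00000111276, chr12:12685498-12722369, plus strand) encodes p27, the inhibitor that accumulates in quiescent cells. Its normalized counts with DMSO at 24 hours were 1120.4, 1103 and 1023, and with AZD5153 they were 741, 758 and 696. The groups did not overlap, and the gene was 1.48-fold lower with treatment (log2 fold change -0.56, SE 0.0736, adjusted p = 5.0e-06, limma, n = 3 against 3). At 48 hours DMSO libraries had 1038, 918 and 1023 and AZD5153 libraries 804, 921 and 852. Here AZD5153 replicate 2 was above DMSO replicate 2, so that the groups overlapped by that pair, and the gene was 1.16-fold lower (log2 fold change -0.21, SE 0.0736, adjusted p = 0.0205, limma). Leaving out DMSO 48-hour replicate 1 (log2 fold change -0.17, adjusted p = 0.0852) or 3 (-0.19, adjusted p = 0.0704), or AZD5153 48-hour replicate 1 (-0.16, adjusted p = 0.0988) or 3 (-0.20, adjusted p = 0.0530), took this 48-hour call away in limma. The effect shrank between the times (interaction log2 fold change 0.36, SE 0.104, adjusted p = 0.0211, limma), as AZD5153 libraries rose 1.17-fold from 24 to 48 hours (log2 fold change 0.23, SE 0.0736, adjusted p = 0.0274, limma). Without DMSO 48-hour replicate 2 (0.30, adjusted p = 0.0645) or AZD5153 48-hour replicate 2 (0.30, adjusted p = 0.0606) that interaction was not called, and the rise in AZD5153 libraries was not called without AZD5153 24-hour replicate 1 (0.24, adjusted p = 0.0568) or 3 (0.19, adjusted p = 0.0983), or 48-hour replicate 2 (0.18, adjusted p = 0.128) or 3 (0.23, adjusted p = 0.0636).

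CDKN1C (ENSG00000129757, chr11:2883213-2885775, minus strand) encodes p57, an imprinted inhibitor that acts in development. It had 1, 0 and 1 reads in the DMSO libraries and 1, 0 and 1 reads in the AZD5153 libraries at 24 hours. At 48 hours it had 6, 6 and 1 reads with DMSO and 0, 2 and 0 reads with AZD5153. Its RNA was near the limit of detection, with 6 or fewer reads in every library, and no test was made.

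CDKN2A (ENSG00000147889, chr9:21967752-21995301, minus strand) encodes both p16, which inhibits CDK4 and CDK6, and ARF, which inhibits MDM2, from transcripts with different starts that gene counts cannot separate. Its normalized counts with DMSO at 24 hours were 265, 246 and 316, and with AZD5153 they were 199.8, 199.7 and 139.5. The groups were apart, with a 1.54-fold decrease (log2 fold change -0.63, SE 0.163, adjusted p = 0.00299, limma, n = 3 against 3). At 48 hours DMSO libraries had 306, 371 and 257 and AZD5153 libraries 145, 131 and 154, a 2.14-fold decrease (log2 fold change -1.10, SE 0.163, adjusted p = 1.9e-05, limma). The difference between the times did not pass the test (interaction log2 fold change -0.47, SE 0.230, adjusted p = 0.150, 95% interval -0.96 to 0.02, limma), and it passed when AZD5153 24-hour replicate 3, the lowest library of its group, was left out (-0.65, adjusted p = 0.0407). CDKN2A RNA was detected in every library, at 131 or more normalized counts.

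CDKN2B (ENSG00000147883, chr9:22002903-22009305, minus strand) encodes p15, an inhibitor of CDK4 and CDK6 that TGF-beta signaling is known to induce, and CDKN2A, its nearest tested protein-coding neighbor, is 7.60 kb away. Its normalized counts with DMSO at 24 hours were 86.8, 109.6 and 114, and with AZD5153 they were 127, 184 and 138. The groups were apart, with replicate 2 the highest treated library, and the gene was 1.44-fold higher (log2 fold change 0.52, SE 0.159, adjusted p = 0.00835, limma, n = 3 against 3). Without that library the change was 0.37 and was not called (adjusted p = 0.0575, limma). At 48 hours DMSO libraries had 126, 121 and 132 and AZD5153 libraries 122, 122 and 134, and the groups overlapped almost entirely (log2 fold change -0.00, 95% interval -0.34 to 0.33, adjusted p = 0.982, limma). The sign of this 48-hour value changed with the scaling, to 0.35 under quantile normalization and 0.02 with 7 stably expressed genes. The 2 adjoining INK4 genes thus differed in sign at 24 hours, CDKN2A lower and CDKN2B higher. The difference of the CDKN2B effect between the times did not pass the test (interaction log2 fold change -0.53, SE 0.224, adjusted p = 0.1004, limma).

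CDKN2C (ENSG00000123080, chr1:50960745-50974634, plus strand) encodes p18, an inhibitor of CDK4 and CDK6 that is a known E2F target. Its normalized counts with DMSO at 24 hours were 886, 971 and 1106, and with AZD5153 they were 804, 765 and 694. Treated libraries all lay below the controls, by 1.31-fold (log2 fold change -0.38, SE 0.0850, adjusted p = 8.4e-04, limma, n = 3 against 3). At 48 hours DMSO libraries had 1023, 979 and 947 and AZD5153 libraries 666, 674 and 610.1, a 1.51-fold decrease (log2 fold change -0.60, SE 0.0850, adjusted p = 1.3e-05, limma). The difference between the times did not pass the test (interaction log2 fold change -0.21, SE 0.120, adjusted p = 0.218, limma).

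CDKN2D (ENSG00000129355, chr19:10566460-10569059, minus strand) encodes p19, the INK4 protein whose level is known to change with the cell cycle. Its normalized counts with DMSO at 24 hours were 90.2, 196 and 185, and with AZD5153 they were 216, 230.4 and 206. The groups were apart only narrowly, and DMSO replicate 1, the library that stood apart in all its counts, was much the lowest. The gene was 1.46-fold higher (log2 fold change 0.54, SE 0.227, adjusted p = 0.0436, limma, n = 3 against 3), but without that library the change was 0.19 and was not called (adjusted p = 0.247, limma), and 16 of 24 alternative settings lost the call. At 48 hours DMSO libraries had 202, 201.2 and 147 and AZD5153 libraries 336, 268 and 323. The groups were apart, with a 1.69-fold increase (log2 fold change 0.76, SE 0.227, adjusted p = 0.00775, limma) that was called under all 24 alternative settings, at adjusted p of at most 0.0476. The difference between the times was not called with all libraries (interaction log2 fold change 0.21, SE 0.321, adjusted p = 0.673, limma) and was called without DMSO 24-hour replicate 1 (0.57, adjusted p = 0.0266).

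**Figure D2:**
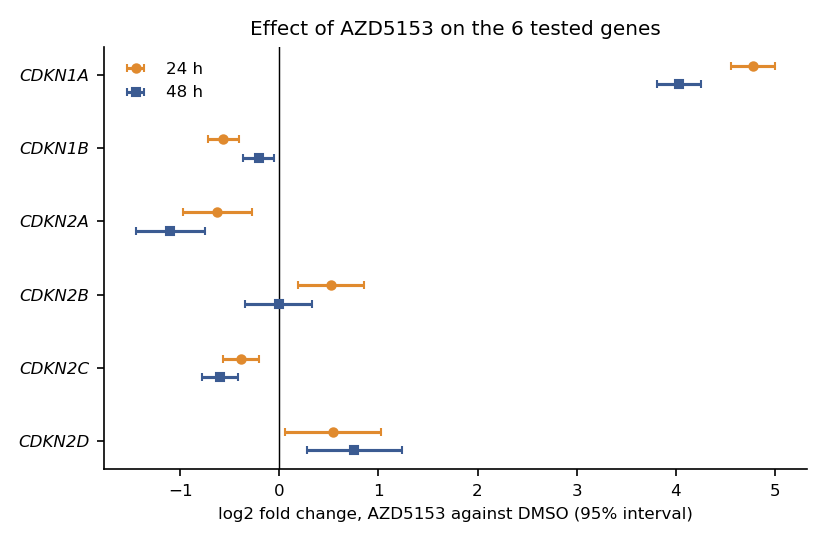
Log2 fold change of AZD5153 against DMSO (x axis) for the 6 tested CKI genes (y axis), with circles for 24 hours, squares for 48 hours and bars for 95% intervals from limma (3 libraries per group). CDKN1A lies at 4.78 and 4.03, and the other 5 genes lie between -1.10 and 0.76.

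Without DMSO 24-hour replicate 1 the 24-hour log2 fold changes of the other members were -0.54 for CDKN1B, -0.65 for CDKN2A, 0.40 for CDKN2B and -0.46 for CDKN2C, and each was still called. Across the interaction of treatment and time, 1 member was higher (CDKN1B, against 14.4% of all genes) and 1 lower (CDKN1A, against 10.1% of all genes), and 4 were not called. From 24 to 48 hours in DMSO, limma called 0 of 6 members in either direction, where 16.4% of all genes were higher and 19.3% lower, and 1 member (CDKN1A) had an unadjusted p below 0.05. edgeR and DESeq2 also called 0. In AZD5153 libraries over the same interval 1 member was higher (CDKN1B, against 15.8% of all genes), 1 was lower (CDKN1A, against 13.8%) and 4 were not called. Of these, CDKN2D (0.50, adjusted p = 0.00277) and CDKN2C (-0.21, adjusted p = 0.0177) were called in limma without DMSO 24-hour replicate 1. The comparisons share libraries and are not independent of each other. Of all calls, 58.9% were higher in the interaction, 45.8% from 24 to 48 hours in DMSO, 53.4% over that interval in AZD5153 and 49.4% for treatment at 48 hours. With library totals made equal these became 48.2%, 56.2%, 54.5% and 37.4%, and with scaling to 7 stably expressed genes 70.8%, 48.0%, 71.3% and 51.1%. Equal totals moved the median log2 fold change of all genes by -0.12 at 24 hours and -0.17 at 48 hours, and the values above are relative to a median of 0.00.

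To compare levels between the genes, reads were divided by the length of all exons of a gene and by the reads on genes in the library (RPKM, reads per kilobase and per 1e+06 reads). In DMSO at 24 hours CDKN2C was the most abundant CKI RNA per length, at 16.9 RPKM. CDKN1B (6.03), CDKN2D (5.37), CDKN1A (4.39) and CDKN2A (3.66) followed, and each of these overlapped its neighbor in the order over the 3 libraries. CDKN2B (1.33) and CDKN1C (0.0140) were below them without overlap. In DMSO at 48 hours the order was CDKN2C (17.4), then CDKN2D (6.52), CDKN1B (5.74), CDKN1A (5.39) and CDKN2A (4.29), which again overlapped in turn, then CDKN2B (1.69) and CDKN1C (0.0849).

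With AZD5153 CDKN1A headed the order at both times. At 24 hours its 110.2 RPKM stood above CDKN2C (11.8), CDKN2D (6.83) and CDKN1B (3.74), each apart from the next, while CDKN2A (2.19) and CDKN2B (1.77) overlapped and CDKN1C (0.0163) was last. At 48 hours its 78.2 RPKM stood above CDKN2C (10.2) and CDKN2D (9.74), which overlapped, and above CDKN1B (4.41), CDKN2A (1.75), CDKN2B (1.497) and CDKN1C (0.0139), which did not. The order depends on the gene model. With the length of the longest transcript in place of all exons, CDKN2A ranked 2 of 7 and CDKN2D 5 of 7 in both DMSO groups, and with AZD5153 at 24 hours they ranked 3 and 5. In DMSO at 24 hours CDKN2A then had 13.5 RPKM, CDKN1B 12.9, CDKN1A 5.80, CDKN2D 5.67 and the 7 genes together 56.8. CDKN2C in DMSO and CDKN1A with AZD5153 stayed at the head.

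CDKN1A made up 11.6% of the summed CKI RPKM in DMSO and 80.7% with AZD5153 at 24 hours. The shares at 48 hours were 13.1% in DMSO and 73.9% with AZD5153. The sum over the 7 genes was 37.7 ± 4.23 (SD, n = 3) in DMSO and 137 ± 6.28 with AZD5153 at 24 hours. At 48 hours it was 41.1 ± 2.81 in DMSO and 106 ± 2.64 with AZD5153. Without CDKN1A the sum was lower with treatment at both times, at 33.3 ± 3.66 and 26.4 ± 1.81 RPKM at 24 hours and 35.7 ± 2.25 and 27.6 ± 0.673 RPKM at 48 hours. The libraries of the 2 treatments did not overlap in that sum at either time. These sums are weighed by RNA level and say nothing of protein. RPKM divides by the reads on genes in a library. Such equal totals moved the median log2 fold change of all genes by -0.12 at 24 hours and -0.17 at 48 hours. RPKM values therefore run lower with treatment than normalized counts do. CDKN2B at 48 hours had means of 126 normalized counts in both groups, but 1.69 RPKM in DMSO and 1.497 with AZD5153. How much of the lower sum comes from this scale was not tested.

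**Figure D3:**
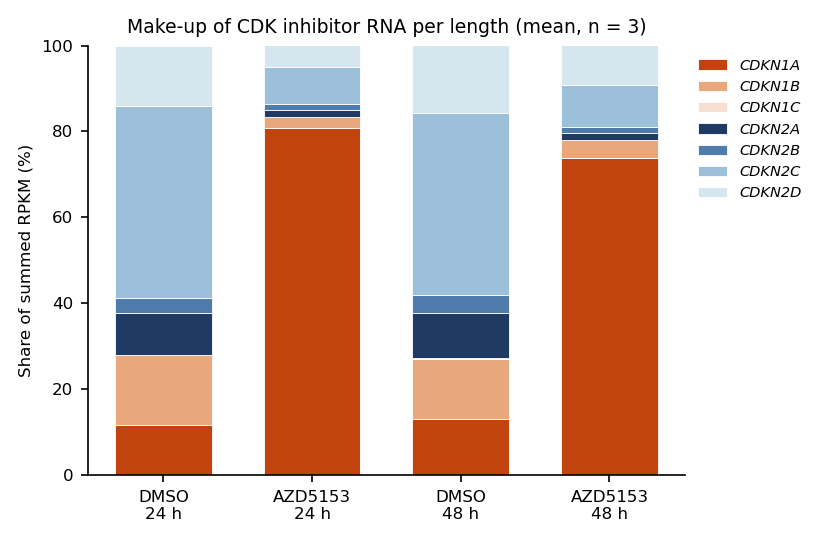
Share of each CKI gene in the summed RPKM of the 7 genes (y axis, percent, mean of 3 libraries) in the 4 groups (x axis). With AZD5153 the CDKN1A segment widens to 80.7% from 11.6% at the earlier time and to 73.9% from 13.1% at the later time, and CDKN2C is the widest segment in both DMSO groups.

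The kinases and cyclins that CKIs bind were read beside them. Calls over all tested genes were 33.9% higher and 34.6% lower at 24 hours and 33.1% higher and 33.9% lower at 48 hours. Of 9 tested G1 and S phase cyclins and CDKs, 2 were higher and 6 lower at 24 hours (median log2 fold change -0.90, against 0.00 over all genes), and 3 were higher and 5 lower at 48 hours (median -0.89). CDK4 and CDK6, the INK4 targets, changed by -0.90 and -1.04 at 24 hours and by -0.95 and -0.98 at 48 hours. CDK2, the main CIP/KIP target, changed by -1.74 and -0.89, and its S phase partner CCNA2 by -2.72 and -1.63. CCND1, the D-type cyclin that activates CDK4 and CDK6, went the other way at 1.33 and 1.05. CDC25A, the phosphatase that activates CDK2, changed by -1.69 and -1.01. All 5 mitotic genes were lower at 24 hours (median -1.73) and 4 at 48 hours (median -1.07), with CDK1 at -2.43 and -0.98, CDC25C at -2.15 and -1.39, CCNB1 at -1.73 and -1.07 and CCNB2 at -1.68 and -1.35. Of the 3 genes of the CDK-activating kinase, 2 were higher at each time (33.9% and 33.1% of all genes), with its catalytic subunit CDK7 at 0.46 and 0.72. The other at 48 hours, its cyclin CCNH (0.25, adjusted p = 0.0379, limma), lost its call in 7 of 24 alternative settings, with equal totals (0.0831) and without DMSO 48-hour replicate 1 (0.27) or 2 (0.21) or AZD5153 48-hour replicate 2 (0.19) or 3 (0.21) among them. The other at 24 hours, the assembly factor MNAT1 (0.32), was not called with equal totals (0.20, adjusted p = 0.109) or without DMSO 24-hour replicate 3 (0.28, adjusted p = 0.0504) or AZD5153 24-hour replicate 2 (0.27, adjusted p = 0.0580, limma).

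The level of CDKN1A RNA per length against the summed RPKM of CDK1, CDK2, CDK4 and CDK6 was 0.0378 ± 0.00670 (SD, n = 3) in DMSO and 2.56 ± 0.165 with AZD5153 at 24 hours. At 48 hours it was 0.0530 ± 0.00747 in DMSO and 1.67 ± 0.0599 with AZD5153. With longest transcripts as the length the 4 ratios were 0.0299, 2.10, 0.0421 and 1.33. Every treated library was above every control library in this ratio.

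Downstream, 10 of 13 genes of the RB family and E2F factors were lower at 24 hours (34.6% of all genes, list median -0.91), and 11 were lower (33.9% of all genes) and 1 higher (33.1%) at 48 hours (list median -0.51). The activator E2F2 changed by -4.59 and -3.44, the repressors E2F8 and E2F7 by -4.38 and -2.29 and by -1.44 and -0.86, and the pocket protein RBL1 by -1.81 and -0.77. RB1 itself was not called, at -0.15 (adjusted p = 0.121) and -0.11 (adjusted p = 0.274, limma), and it was called lower with library totals made equal, at -0.27 and -0.28. It was also called at 24 hours without DMSO 24-hour replicate 3 (-0.25, adjusted p = 0.00590) or AZD5153 24-hour replicate 3 (-0.22, adjusted p = 0.0443, limma), and at 48 hours under quantile normalization (-0.21, adjusted p = 0.0395).

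A list of 12 genes held PCNA and genes of the ubiquitin ligases that degrade CIP/KIP proteins. Of these 12, 3 were higher and 7 lower at 24 hours (median -0.41), beside 33.9% and 34.6% of all genes. At 48 hours 4 were higher and 6 lower (median -0.08), beside 33.1% and 33.9% of all genes, so that the share higher was near or below that of all genes at both times. SKP2, which recognizes p27, changed by -1.18 and -0.50, and its cofactor CKS1B by -1.74 and -0.997. DTL, the receptor of the ligase that degrades p21 at PCNA, changed by -1.74 and -0.91. PCNA, which is not a ligase gene but is counted among the lower genes at both times, changed by -1.07 and -0.41. RNF123, a ligase subunit that acts on p27 in G1, went the other way at 1.44 and 1.13.

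Of 16 transcription regulators of the CIP/KIP genes, 3 were higher and 9 lower at 24 hours (median -0.41; all genes 33.9% and 34.6%) and 1 higher and 10 lower at 48 hours (median -0.37; all genes 33.1% and 33.9%). MDM2, a ubiquitin ligase, changed by -0.60 and -0.40, while CDKN1A rose. MYC, a repressor of CDKN1A and CDKN2B through ZBTB17, was higher at 1.47 and 0.82. TFAP4, another repressor of CDKN1A, changed by -2.28 and -2.82, and SMAD3 by -1.17 and -1.06. FOXO1 was higher at 24 hours (1.33) and was not called at 48 hours (0.36, adjusted p = 0.221, limma), where quantile normalization called it (0.72).

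Of 17 regulators of the INK4 locus, 6 were higher and 9 lower at 24 hours (median -0.45), beside 33.9% and 34.6% of all genes, so that the share higher was near that of all genes. At 48 hours 4 were higher and 7 lower (median -0.06), beside 33.1% and 33.9% of all genes. ID1, which blocks ETS activation of CDKN2A, changed by 3.47 and 3.42, ID2 by 3.14 and 3.52, and ID3 by 2.66 and 1.42. HMGA2, a repressor of the locus, changed by -1.67 and -2.44. Of 9 other genes for proteins that restrain CDKs, 1 was higher and 5 lower at 24 hours (median -0.32; all genes 33.9% and 34.6%) and 1 higher and 7 lower at 48 hours (median -0.76; all genes 33.1% and 33.9%). HEXIM1, which holds the transcription kinase CDK9 inactive, changed by 2.17 and 2.05. The kinases WEE1 and PKMYT1, which inhibit CDK1 by phosphorylation, changed by -1.91 and -1.32 and by -1.95 and -1.46, and CABLES1, which promotes inhibitory phosphorylation of CDK2, by -1.25 and -0.74, the latter not called under quantile normalization (-0.40).

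**Figure D4:**
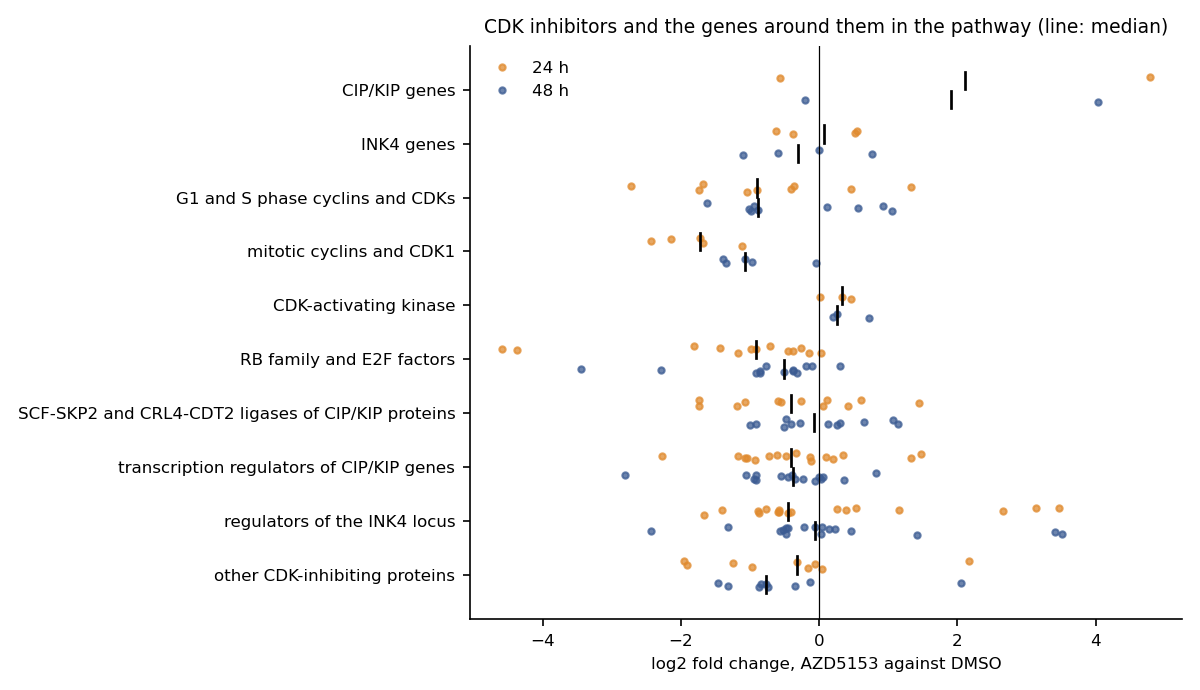
Log2 fold change of AZD5153 against DMSO (x axis) for each tested gene of the CKI families and of 8 lists around them (y axis), at 24 hours (orange) and 48 hours (blue). Points are genes and black lines are list medians, which lie at -0.90 and -0.89 for G1 and S phase cyclins and CDKs and at -1.73 and -1.07 for mitotic genes.

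The nearest tested protein-coding gene on each side of each CKI gene was compared with it. These genes lay 0.429 to 479 kb away, and the changes below are log2 fold changes at 24 and 48 hours. On the lower-coordinate side of CDKN1A, SRSF3 (70.9 kb away) changed by -0.51 and -0.44. On the other side, CPNE5 (53.4 kb away) changed by -1.85 and -1.97, and both were opposite in sign to CDKN1A. CPNE5 was low, with mean normalized counts of 19.0 (DMSO) and 4.94 (AZD5153) at 24 hours and 32.0 and 7.44 at 48 hours. Next to CDKN2D, KRI1 was not called (0.13 and -0.13, the latter called at -0.30 with equal totals) and AP1M2 changed by -1.83 and -2.49, while CDKN2D was higher. Next to CDKN1B, APOLD1, 3.55 kb away, changed by -0.60 and -0.24 and CREBL2, 40.4 kb away, by -0.00 (not called) and 0.14. At 48 hours the APOLD1 call was lost in 10 of 24 alternative settings, with values down to -0.14 without AZD5153 48-hour replicate 3, and the CREBL2 call remained in 9 of 24. CREBL2 took the other sign under some settings, given with the processing checks. Around CDKN2C, FAF1 (0.478 kb away) changed by -0.84 and -0.59 and RNF11 (262 kb away) by 0.51 and 0.47. MTAP, 30.1 kb from CDKN2A on the side away from CDKN2B, changed by -0.46 and -0.24. DMRTA1, 438 kb beyond CDKN2B, was not called at 24 hours (-0.59, adjusted p = 0.0823, limma) and changed by -1.34 at 48 hours. It was called at 24 hours with equal totals (-0.71, adjusted p = 0.0398) and without DMSO 24-hour replicate 2 (-0.87, adjusted p = 0.0178, limma). TSSC4, 479 kb from the almost silent CDKN1C, was not called at 24 hours (-0.33, adjusted p = 0.105, limma) and changed by -0.70 at 48 hours. It was called at 24 hours without DMSO 24-hour replicate 1 (-0.61, adjusted p = 4.6e-06, limma) and with equal totals (-0.45, adjusted p = 0.0284). SLC22A18, 13.9 kb from CDKN1C, changed by -0.71 and -0.86. Its 24-hour call was lost in 8 of 23 alternative settings, 4 of them left-out libraries. Those were DMSO 24-hour replicates 2 (-0.61) and 3 (-0.49) and AZD5153 24-hour replicates 1 (-0.47) and 2 (-0.68). Its 48-hour call was lost under quantile normalization (-0.51) and without AZD5153 48-hour replicate 1 (-0.68).

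**Figure D5:**
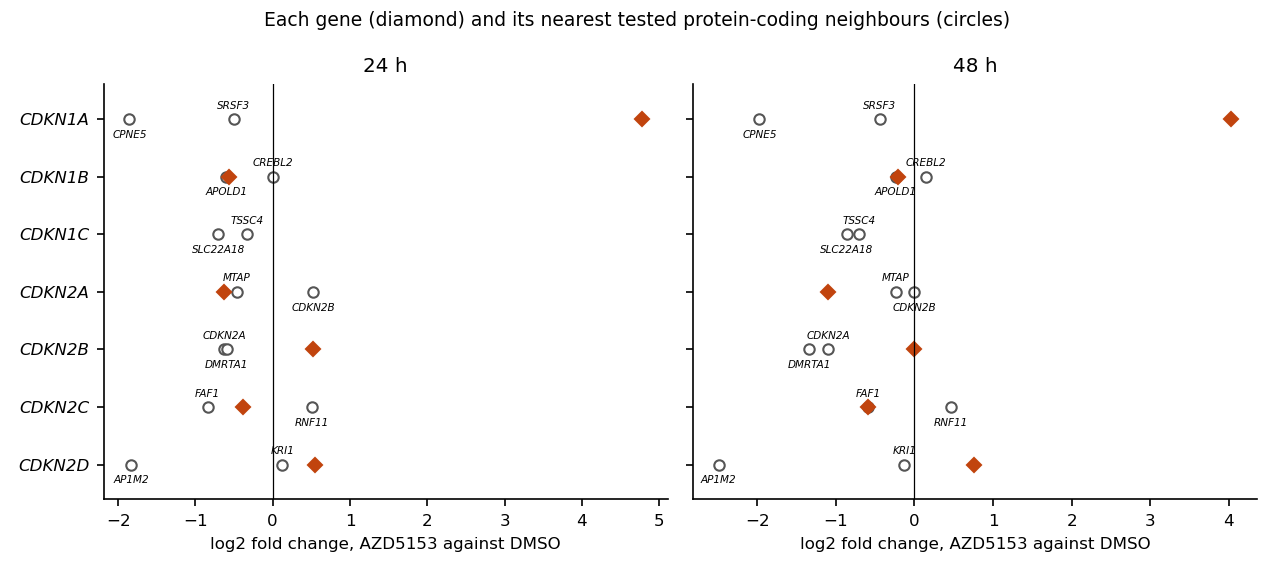
Log2 fold change of AZD5153 against DMSO (x axis) for each CKI gene (diamonds, none for CDKN1C) and the nearest tested protein-coding gene on each side (circles, named), at 24 hours and 48 hours. CDKN1A lies at 4.78 and 4.03 with both neighbors below 0, at -0.51 and -1.85 at 24 hours.

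Some genes overlap the CKI genes on the opposite strand, and the sources used here do not say whether reads were counted by strand, so reads from overlapping exons cannot be assigned with certainty. CDKN2B-AS1, the antisense RNA of the INK4 locus known as ANRIL, covers 593 bases (15.3%) of the exons of CDKN2A. Its mean was 17.4 normalized counts, and it changed by -1.34 at 24 hours (limma, adjusted p = 0.0136) and, 24 hours later, by -1.53 (limma, adjusted p = 0.00626), the same direction as CDKN2A. Its 24-hour call was lost without DMSO 24-hour replicate 1 (-1.06, adjusted p = 0.0620) or AZD5153 24-hour replicate 1 (-1.01, adjusted p = 0.0683). GPR19 overlaps CDKN1B without sharing exon bases and changed by -3.80 and -3.62 (mean 40.3). Its group means were 70.4 (DMSO) and 4.30 (AZD5153) normalized counts at 24 hours and 80.2 and 6.31 at 48 hours, so treated values were low. DINOL, which shares 146 bases (4.87%) with CDKN1A exons, had 0 reads in all 12 libraries, where a count of 0 allows up to 3 reads each. Stretches of 50 bases that also occur in another gene were found for CDKN2A and CDKN2B only, which share 31 (0.755% and 0.776% of those in each).

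The 3 genes whose levels followed each member most closely were found by Pearson correlation of log2 values over the 12 libraries, restricted to genes whose mean normalized count was 100 or more. The libraries share treatment groups, so the coefficients describe the group pattern. CDKN1A was followed by DCXR (r = 0.998), INPP4A and OAT (both 0.997). CDKN1B was followed by DONSON (0.982), RBBP9 and DENND1A (both 0.970). CDKN2A was followed by COPRS and ARHGEF1 (both 0.961) and CTSZ (0.956), and CDKN2C by ARHGEF1 (0.978), OAF and TRAF2 (both 0.977), so that ARHGEF1 was near both. CDKN2D was followed by VPS51 (0.971), LRRC14 (0.963) and MRPL10 (0.954). CDKN2B had the weakest likeness, to CBARP (0.908), CCDC61 (0.890) and CCDC78 (0.886).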

How the data were processed

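RNA from 12 libraries was sequenced as 150 bp read pairs. Per the labels and the methods of the study, the authors aligned reads to hg38 with STAR, counted them with HTSeq-count and normalized with DESeq2, with versions and annotation not given in the sources used here. The deposited values are a signal, counts divided by size factors. All were whole multiples of a per-library step (100%, tolerance 0.1), so reads were recovered. The 6 deposited columns of the authors' own comparison (mean, fold change, error, statistic and p-values) were not used.

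Values were log2-transformed with a pseudocount of 1 for genes with a mean of at least 10 and tested with limma 3.58.1 (trend, 4 groups, 8 residual degrees of freedom, Benjamini-Hochberg threshold 0.05). Alternatives were other pseudocounts, filters, scalings, a replicate block, edgeR 4.0.16 and DESeq2 1.42.0 on recovered reads (edgeR calling 5394 genes higher and 5298 lower at 24 hours), and leaving out each library. Gene models were GENCODE 44. Fitting was tested on simulated data.

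Members and lists were chosen with earlier results of these data known. Beside members and the regulators in view, the rule named at most the 4 called genes of each list with the largest change, overlapping and flanking genes, and the 3 genes most like each member. 1 regulator that the rule names is not reported here.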

Additional observations from a re-analysis of the deposited data

Results flagged for a closer look

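The effect of AZD5153 on CDKN1A and on CDKN1B differed between the 2 times by the test of the difference itself (limma interaction, n = 3 per group). For CDKN1A the effect at 48 hours was lower than at 24 hours by a log2 difference of -0.75 (adjusted p = 0.00172), and for CDKN1B it was less negative at 48 hours by 0.36 (adjusted p = 0.0211). The CDKN1A difference was called under every alternative run. The CDKN1B difference was not called under quantile normalization (0.28, adjusted p = 0.0736), without DMSO 48-hour replicate 2 (0.30, adjusted p = 0.0645) or without AZD5153 48-hour replicate 2 (0.30, adjusted p = 0.0606).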

How the results depend on the processing

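Every library is 1 of 3 in its group, so a call near the threshold can turn on a single library. Gene counts do not separate transcripts, and the sources used here do not say whether reads were counted by strand. CDKN1A was higher under all 24 alternatives at both times (log2 fold change 4.65 to 4.88 at 24 hours and 3.86 to 4.13 at 48 hours), and CDKN2A and CDKN2C were called lower under all 24 at both times. The 24-hour call of CDKN2D was lost with no minimum mean (adjusted p = 0.0638), equal totals (0.106), 7 stable genes (0.0632), the compared groups alone (0.0969), no variance trend (0.0930), edgeR (0.0616) and 9 left-out libraries. Quantile normalization ended the CDKN1B interaction call (0.28, adjusted p = 0.0736), so that 0 members were higher there. Equal totals called 1 member higher from 24 to 48 hours in DMSO (CDKN1A). In AZD5153 libraries over that interval 0 members were higher with no minimum mean, 2 with only the compared groups and 2 with DESeq2, 2 were lower with only the compared groups, and 1369 genes were lower with 7 stable genes against 2155. Leaving out each library in turn gave 1 to 3 members higher at 24 hours, 0 to 2 higher and 1 to 2 lower for the interaction, 0 to 1 higher from 24 to 48 hours in DMSO, and 0 to 2 higher and 1 to 3 lower over that interval in AZD5153.

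Values near 0 changed sign. CDKN2B at 48 hours was 0.35 under quantile normalization, 0.0212 with 7 stable genes and -0.0510 to 0.0250 with libraries left out. From 24 to 48 hours in DMSO CDKN2C was 0.0514 with equal totals, 0.0510 under quantile normalization, 0.00969 with 7 stable genes, 0.00839 in edgeR and -0.0770 to 0.0831 with libraries left out, and CDKN2D was -0.0700 without DMSO 24-hour replicate 1 (range -0.0700 to 0.487). CREBL2 at 24 hours was 0.0145 under quantile normalization, 0.0147 in edgeR and -0.0424 to 0.0321 with libraries left out, and -0.0287 at 48 hours with equal totals. CCNH at 24 hours was -0.116 with equal totals, -0.0395 with 7 stable genes and -0.0544 to 0.0804 with libraries left out. The cause was not tested. With the longest transcript as length, CDKN1A had 5.80, 146, 7.12 and 103 RPKM (DMSO and AZD5153 at 24 hours, then at 48 hours) and 10.2%, 79.6%, 11.5% and 72.9% of the summed level.

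Replicate numbers gave no sign of pairing between the treatments at 24 hours. Correlations of deviations were -0.15 to 0.04 for same-numbered libraries and -0.11 to 0.15 for differently numbered ones. With 3 libraries per group this cannot show that the replicates were unpaired. With the replicate block 5207 genes were higher and 5319 lower at 24 hours, and CDKN2D at 24 hours (0.54) had an adjusted p of 0.0533, while DMRTA1 at 24 hours (-0.59) was called (0.0358).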
